A study of Mus musculus with 6 samples.

Results

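Pleiotrophin, midkine, the glypicans and the syndecans were measured in RNA from mouse tendon stem/progenitor cells, the precursor cells of tendon fibroblasts. The set holds 10 of the 15711 genes in the table, namely the heparin-binding growth factor genes Ptn and Mdk, the glypican genes Gpc1, Gpc3, Gpc4 and Gpc6, and the syndecan genes Sdc1, Sdc2, Sdc3 and Sdc4. The genes were listed by family, and the list was chosen by a reading of earlier results of these data, with the measured contrast between the groups known. The levels of the 10 genes and the differences between groups are therefore a description, with no test.

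The series had 6 libraries, 3 of cells sorted as Col1α1+Vldlr+ and 3 of cells sorted as Col1α1+Vldlr-, from tendon of mice that carried a Col1α1-Cre driver and a YFP reporter. The genotype label has another number after Col1α in each sample, while the cell line label is Col1α1 in all 6. All cells were kept after the sort in medium with fetal bovine serum, so both groups share the driver, the reporter and the culture. The groups are called labelled-positive and labelled-negative after these sort labels. The driver marks cells in which the Col1α1 promoter has been active, and the labels give no age, sex or treatment and do not say whether the libraries of a group came from separate animals or cultures. Differences between libraries of a group may then be technical.

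Pleiotrophin and midkine are the members of a small family of secreted growth factors that bind heparin and the heparan sulfate chains of proteoglycans. Glypicans and syndecans are the main carriers of heparan sulfate at the cell surface: glypicans hang on the membrane by a lipid anchor, while syndecans cross it and have a short cytoplasmic tail that binds PDZ proteins and the cytoskeleton. Their chains bind growth factors of the FGF, Wnt, hedgehog and BMP families and set how much of each factor reaches its receptor. In skeletal tissue pleiotrophin is known from bone and cartilage matrix, and glypican 3 is known as a brake on growth, since its loss in humans and mice causes overgrowth.

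Between the groups, the pair of growth factors differed in opposite directions. Ptn was at 388 ± 5.12 RPKM in libraries labelled Vldlr- and 11.6 ± 1.51 RPKM in the labelled-positive ones, while Mdk was at 4.54 ± 0.386 and 40.8 ± 6.02 RPKM (mean ± SD, n = 3 each). RPKM counts the reads of a gene relative to its exon length and to a library size. The library size worked out from the listed values was 1.07 to 1.08 times the total reads in libraries labelled Vldlr-. In those labelled Vldlr+ it was 0.932 to 0.939 times the total reads. The listed values were thus not scaled to total reads alone, and scaling by total reads, given below, lowers the labelled-positive values relative to the labelled-negative ones. Of the glypicans, Gpc3 was nearly missing from the libraries labelled Vldlr+, Gpc1 was higher there, and Gpc4 and Gpc6 were moderately lower. Of the syndecans, Sdc1, Sdc3 and Sdc4 were higher in libraries labelled Vldlr+ and Sdc2, the most abundant, was slightly lower.

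The promoters of 6 of the 10 genes, taken here as 250 bases before to 50 after the gene's start, were found in RefSeq on GRCm38.p6, and 4 are printed. They belong to Ptn and Gpc3, which differed most, to Gpc4, which lies beside Gpc3 on the chromosome, and to Sdc3, the syndecan that differed most. The Ptn promoter is at chr6:36810130-36810429, that of Gpc3 at chrX:52613925-52614224, that of Gpc4 at chrX:52164874-52165173, all on the minus strand, and that of Sdc3 at chr4:130792287-130792586 on the plus strand. Sequences run 5′ to 3′ along the gene. Capitals mark GC boxes (GGGCGG on either strand) and TATAA on either strand.
Ptn: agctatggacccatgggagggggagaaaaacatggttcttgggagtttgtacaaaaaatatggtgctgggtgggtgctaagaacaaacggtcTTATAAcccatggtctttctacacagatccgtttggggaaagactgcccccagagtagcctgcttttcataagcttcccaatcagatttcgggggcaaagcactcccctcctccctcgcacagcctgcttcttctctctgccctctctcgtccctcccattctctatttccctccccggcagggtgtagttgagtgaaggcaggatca
Gpc3: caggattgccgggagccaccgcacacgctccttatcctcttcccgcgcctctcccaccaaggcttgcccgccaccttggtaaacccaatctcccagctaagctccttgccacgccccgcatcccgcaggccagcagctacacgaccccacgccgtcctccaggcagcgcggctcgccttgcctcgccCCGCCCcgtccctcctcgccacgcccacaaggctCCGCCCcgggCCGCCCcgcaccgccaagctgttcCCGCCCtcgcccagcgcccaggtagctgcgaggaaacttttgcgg
Gpc4: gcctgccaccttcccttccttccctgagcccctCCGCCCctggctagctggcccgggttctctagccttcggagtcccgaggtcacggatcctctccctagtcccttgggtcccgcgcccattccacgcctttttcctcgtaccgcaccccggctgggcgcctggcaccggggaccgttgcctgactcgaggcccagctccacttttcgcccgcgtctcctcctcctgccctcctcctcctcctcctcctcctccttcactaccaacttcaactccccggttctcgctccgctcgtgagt
Sdc3: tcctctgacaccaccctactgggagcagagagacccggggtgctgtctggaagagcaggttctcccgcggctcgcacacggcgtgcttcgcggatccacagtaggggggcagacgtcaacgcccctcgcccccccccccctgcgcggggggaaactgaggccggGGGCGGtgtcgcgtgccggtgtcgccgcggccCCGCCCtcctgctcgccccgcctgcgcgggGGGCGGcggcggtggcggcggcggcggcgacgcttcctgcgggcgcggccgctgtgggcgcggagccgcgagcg

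The printed promoters differ in their base composition. The Ptn promoter had 52.0% G and C, 6 CpG dinucleotides, no GC box and 1 stretch that reads TATAA on both strands, which overlap. The Gpc3 promoter had 70.7% G and C, 30 CpG dinucleotides, 4 GC boxes and no TATAA, and the Gpc4 promoter had 66.7% G and C, 22 CpG dinucleotides and 1 GC box. The Sdc3 promoter was the richest of the 6, with 77.7% G and C, 44 CpG dinucleotides and 3 GC boxes. Among 8981 promoters of tested genes the median was 61.3% G and C with 21 CpG dinucleotides, 66.7% held a GC box and 12.6% held TATAA. The Ptn promoter stood at percentile 15.0 of these for G and C and at percentile 7.60 for CpG dinucleotides. Sdc1 and Sdc4 held 3 and 4 GC boxes and each also held TATAA. The motif CCAAT, on either strand, was found once each in the promoters of Ptn, Gpc3 and Sdc1 and in 38.6% of all promoters. The motif CATTCC was found once, for Gpc4, against 11.7% of all promoters. The motif CACGTG was found in none of the 6 and in 10.6% of all promoters. These matches are descriptions of the letters in these windows.

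The libraries were even in depth, with totals of 17273141 to 17341782 worked-out reads in libraries labelled Vldlr- and 17653831 to 17712144 in those labelled Vldlr+. Labelled-positive replicate 1 differed from replicates 2 and 3 of its group by a median of 0.13 and 0.12 (absolute difference in log2 of RPKM + 1 over 12116 tested genes), against 0.06 to 0.09 for all other pairs within a group. Vldlr itself was listed at 0.961, 0.959 and 0.467 RPKM in libraries labelled Vldlr- and at 4.73, 3.97 and 3.70 RPKM in the labelled-positive ones. The 3 labelled-negative values are the only ones in the table with a gene length that do not equal whole reads, and they do so once 5 RPKM is added to each, which puts their mean at 5.80 RPKM, above the 4.13 RPKM of the libraries labelled Vldlr+. No direction is drawn from Vldlr, and the groups are called by their labels. All 10 tendon markers, among them Scx, Mkx, Tnmd, Fmod and Comp, were detected in both groups, though Thbs4 was at 2.23 and 1011.5 RPKM. Of the 10, 8 were called higher and 1 (Tnmd) lower in libraries labelled Vldlr+, against 29.7% and 26.1% of all tested genes.

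Markers of other cells moved with the groups. Across all tested genes, 29.7% were called higher and 26.1% lower. Several markers, among them Ctss, C1qa and Cdh5, were under 1 RPKM in all libraries of 1 group and were tested through the other group alone. All 10 tested macrophage markers were lower in libraries labelled Vldlr+, and the sum over the list was 573 to 696 RPKM in libraries labelled Vldlr- and 25.9 to 33.2 RPKM in those labelled Vldlr+, where Tyrobp had no reads. Of 8 tested Schwann cell and neural crest markers 7 were higher and 1 (S100b, at 15.4 and 4.50 RPKM) lower. The list sums were 20.8 to 22.7 and 130 to 141 RPKM. Of 7 tested endothelial markers 6 were higher and 1 (Tek, at 3.52 and 0.496 RPKM) lower. The list sums were 4.03 to 4.88 and 18.1 to 19.7 RPKM, and Cdh5 and Tie1 had no reads in libraries labelled Vldlr-. Of 6 tested pericyte and smooth muscle markers 4 were higher and 2 lower (207 to 238 and 699 to 792 RPKM, mostly Acta2), and all 3 tested adipocyte markers were lower (30.2 to 33.4 and 3.27 to 4.70 RPKM). Of 7 tested fibroblast and progenitor markers 1 was higher and 5 lower, with overlapping sums of 794 to 911 and 809 to 891 RPKM. Of the muscle list only Des was analysed, at under 1 RPKM in all libraries, and the epithelial and plasma cell list, whose cells carry much syndecan 1, was not analysed here. The part of these cells in the levels of the 10 genes was not tested.

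**Figure D1:**
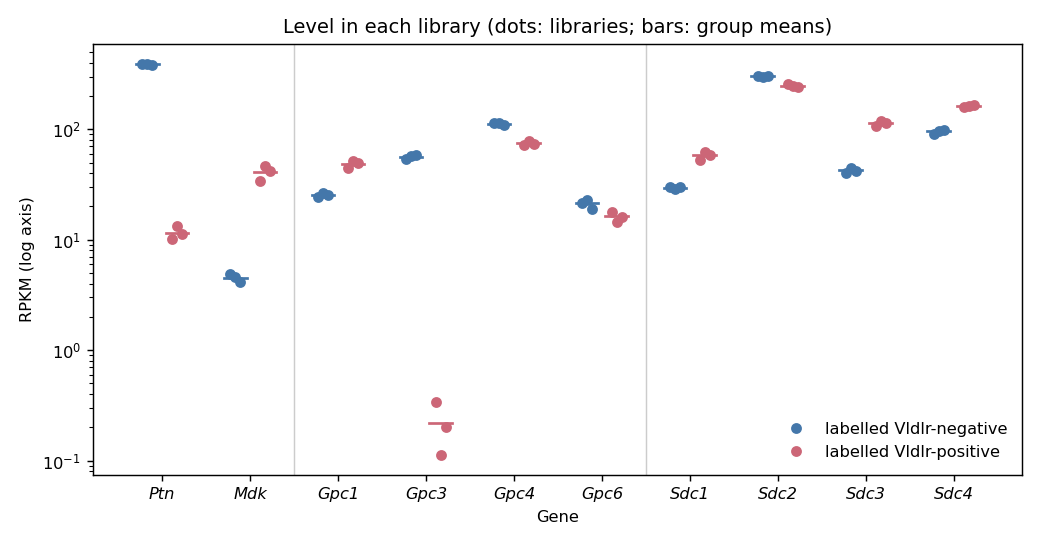
RPKM of the 10 genes (log axis) in each of the 3 libraries labelled Vldlr- (blue, labelled-negative) and the 3 libraries labelled Vldlr+ (red, labelled-positive); dots are libraries and short bars are group means. The groups do not overlap for any of the 10 genes, and Gpc3 in libraries labelled Vldlr+ lies below 1 RPKM.

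Ptn encodes pleiotrophin, a secreted growth factor that acts on neurites, bone cells and vessels. The gene (chromosome 6, 36714929 to 36810220, minus strand, GRCm38) was at 394, 387 and 384 RPKM in labelled-negative replicates 1 to 3 and at 10.3, 13.2 and 11.2 RPKM in labelled-positive replicates 1 to 3. All libraries labelled Vldlr- were far above all labelled-positive ones, by 33.6-fold on the means. The labelled-negative values varied by 1.32% of their mean and the labelled-positive ones by 13.1%. With 74432 reads over the labelled-negative and 1970 over the libraries labelled Vldlr+, counting error was small in both. On the log2 scale of RPKM + 1 the difference was -4.96 (SE 0.08). In libraries of many cells, fewer cells that express a gene and less RNA in each cell cannot be told apart.

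Mdk encodes midkine, the other growth factor of the family, which is abundant in the embryo and returns in repair. The gene (chromosome 2, 91929805 to 91932297, minus strand) was at 4.91, 4.58 and 4.14 RPKM in libraries labelled Vldlr- and at 34.3, 46.1 and 42.0 RPKM in those labelled Vldlr+. All libraries labelled Vldlr+ were higher, by 8.98-fold on the means (log2 fold change 2.91, SE 0.11), and replicate 1 was the lowest of them. On the scale of RPKM + 1, 24 of the 12116 tested genes had a larger log2 fold change than Mdk, and 4 had a more negative one than Ptn. This scale shrinks the change of genes that end near 0, so the rank is not one of folds. C1qb, for example, was 788-fold lower on the means but stood at -4.85, behind Ptn. By level, Ptn ranked 55th among the tested genes in libraries labelled Vldlr- and 3918th in those labelled Vldlr+, and Mdk 7445th and 1132nd.

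Set against each other in the same library, which no scaling of libraries can alter, Ptn was 80.3 to 92.8 times the level of Mdk in libraries labelled Vldlr-. In the libraries labelled Vldlr+ Mdk was 3.34 to 3.76 times the level of Ptn. Ptn made up 98.8% ± 0.0831 of the summed RPKM of the pair in libraries labelled Vldlr- and 22.1% ± 1.01 in those labelled Vldlr+. The sum of the pair was 7.50-fold lower in libraries labelled Vldlr+, at 52.4 ± 7.44 against 393 ± 5.49 RPKM, so Mdk was higher by fewer RPKM than Ptn was lower.

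Gpc3 encodes glypican 3, which binds hedgehog proteins and keeps them from their receptor Patched. The gene (chromosome X, 52272426 to 52613950, minus strand) was at 53.9, 57.2 and 58.7 RPKM in libraries labelled Vldlr- and at 0.339, 0.112 and 0.202 RPKM in those labelled Vldlr+. All libraries labelled Vldlr+ were far below the others, by 260-fold on the means and by 361-fold without labelled-positive replicate 1. The labelled-positive values rest on 15, 5 and 9 reads, with exact 95% Poisson intervals of 8.40 to 24.7, 1.62 to 11.7 and 4.12 to 17.1 reads, which cover counting error only. The 3 intervals overlap, so the order of these libraries is not resolved. The libraries labelled Vldlr- held 2703, 2864 and 2940 reads. The log2 fold change was -5.57 (SE 0.08) with a pseudocount of 1 and -7.54 with 0.1, since the pseudocount sets the size of a change that ends near 0. Antisense genes are annotated over Gpc3, and whether the authors counted by strand is not given in the sources used here.

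Gpc4 encodes glypican 4, the most abundant glypican in both groups, known as a carrier of FGF and Wnt ligands. The gene (chromosome X, 52053021 to 52165252, minus strand) was at 113, 114 and 110 RPKM in libraries labelled Vldlr- and at 71.8, 77.7 and 74.4 RPKM in those labelled Vldlr+. The groups did not overlap, and the labelled-positive mean was 1.51-fold lower (log2 fold change -0.59, SE 0.05). Gpc4 lies 107 kb downstream of Gpc3 on the same strand and was 1.88 to 2.10 times its level in libraries labelled Vldlr-. In the libraries labelled Vldlr+ it was 212 to 694 times the level of Gpc3. The difference in Gpc3 was thus far larger than that of the neighbouring glypican gene in the same libraries.

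The genes near Gpc3 and Gpc4 differed in both directions. Of the 5 genes in the table within 500 kb of Gpc3, Gpc4 included, 2 were called higher and 2 lower. Across all tested genes 29.7% were called higher and 26.1% lower, and nothing is read from so few neighbours. Hprt, a purine salvage enzyme, was at 66.0 ± 3.87 RPKM in libraries labelled Vldlr- and 76.9 ± 2.01 RPKM in those labelled Vldlr+ (log2 fold change 0.22, limma adjusted p = 0.016). The non-coding gene C430049B03Rik, 441 kb upstream, fell from 4.00 ± 0.352 to 1.10 ± 0.0563 RPKM (log2 fold change -1.25, limma adjusted p = 2.1e-06). On the other side, Hs6st2, a heparan sulfate 6-O-sulfotransferase gene 371 kb downstream of Gpc4, was at 48.7 ± 2.31 and 59.4 ± 10.4 RPKM and did not pass (adjusted p = 0.067). These neighbours were looked at after the level of Gpc3 was known.

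**Figure D2:**
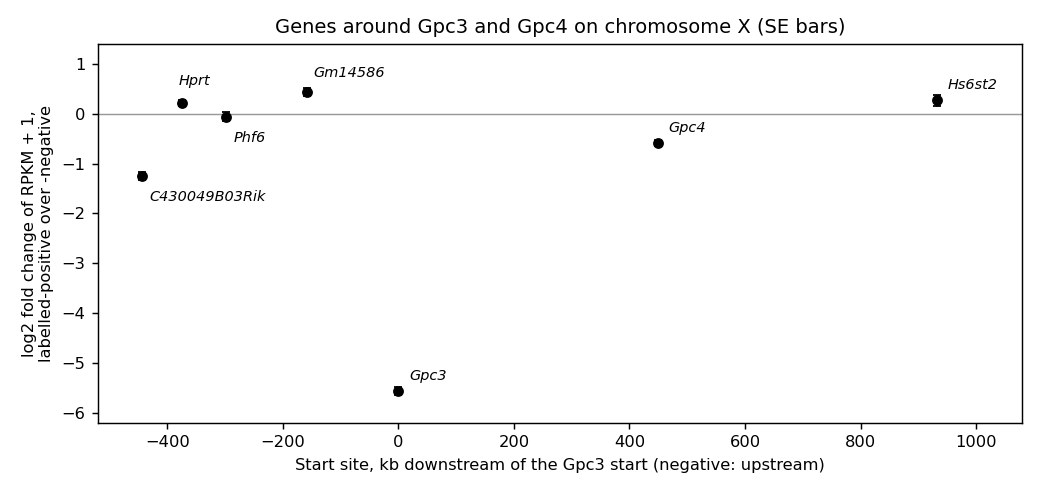
Difference between the groups (log2 fold change of RPKM + 1, labelled-positive over labelled-negative, with SE bars) for genes of the table within 500 kb of Gpc3 or Gpc4, by the distance in kb of their start from the start of Gpc3. Gpc3 stands at -5.57 and the other genes lie between -1.25 and 0.44.

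Gpc1 encodes glypican 1, a widely expressed glypican that binds FGFs and Slit proteins. The gene (chromosome 1, 92831645 to 92860779, plus strand) was at 24.4, 26.5 and 25.2 RPKM in libraries labelled Vldlr- and at 44.5, 51.4 and 49.6 RPKM in those labelled Vldlr+. All libraries labelled Vldlr+ were higher, by 1.91-fold on the means (log2 fold change 0.91, SE 0.07). It shares ground with Ankmy1 on the other strand, but that gene was listed at a mean of 0.0776 and 0.104 RPKM, far below Gpc1. The antisense genes Gm29480 and Gm29481 are also annotated over Gpc1 and were not analysed here. Gpc6 encodes glypican 6, whose loss in humans causes short limbs. The gene (chromosome 14, 116925315 to 117976544, plus strand) was at 21.7, 23.1 and 19.1 RPKM in libraries labelled Vldlr- and at 18.0, 14.6 and 16.2 RPKM in those labelled Vldlr+. The groups came close, with 19.1 RPKM as the lowest labelled-negative and 18.0 RPKM as the highest labelled-positive value, and the labelled-positive mean was 1.31-fold lower (log2 fold change -0.37, SE 0.09).

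Gpc2, a glypican of the developing nervous system that was not part of the set, was low in all libraries, at 0.381 ± 0.0724 RPKM in libraries labelled Vldlr- and 0.151 ± 0.0209 RPKM in those labelled Vldlr+, on 91 and 32 reads. It did not pass the filter on low values. Gpc5 was not analysed here.

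The summed level of the 4 glypican genes was 213, 221 and 213 RPKM in libraries labelled Vldlr- and 135, 144 and 140 RPKM in those labelled Vldlr+. The groups did not overlap, and the labelled-positive mean was 1.55-fold lower. The make-up of the sum differed as well. Gpc4 held 52.1% ± 0.803 of it in libraries labelled Vldlr- and 53.5% ± 0.512 in those labelled Vldlr+, which is nearly the same share. Gpc3 held 26.2% ± 1.16 and 0.158% ± 0.0879, and Gpc1 held 11.8% ± 0.284 and 34.7% ± 1.45. Gpc6 held 9.87% ± 0.806 and 11.7% ± 1.60. By share, Gpc3 came behind Gpc4 in libraries labelled Vldlr- and Gpc1 did so in the labelled-positive ones.

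**Figure D3:**
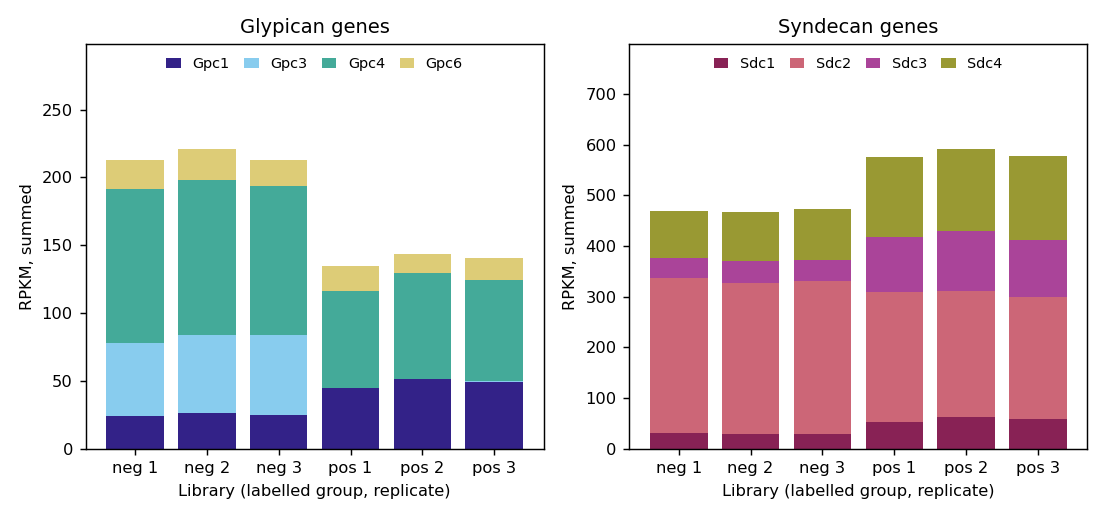
Summed RPKM of the 4 glypican genes (left) and the 4 syndecan genes (right) in each library, stacked by gene, with each axis starting at 0. Gpc3 is visible in the labelled-negative bars alone, and the syndecan sum is higher in the 3 libraries labelled Vldlr+, at 575 to 592 RPKM.

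Sdc2 encodes syndecan 2, the syndecan of mesenchymal cells, and was the most abundant syndecan in both groups. The gene (chromosome 15, 32920723 to 33034935, plus strand) was at 306, 298 and 301 RPKM in libraries labelled Vldlr- and at 257, 248 and 241 RPKM in those labelled Vldlr+. The groups did not overlap, and the labelled-positive mean was 1.21-fold lower (log2 fold change -0.28, SE 0.05). Of the syndecans it was the only one that was lower.

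Sdc3 encodes syndecan 3, best known from the nervous system, where it is a receptor for pleiotrophin. The gene (chromosome 4, 130792537 to 130826319, plus strand) was at 40.6, 44.8 and 41.8 RPKM in libraries labelled Vldlr- and at 108, 118 and 113 RPKM in those labelled Vldlr+. All libraries labelled Vldlr+ were higher, by 2.67-fold on the means (log2 fold change 1.39, SE 0.06). Its level was thus higher in the libraries in which Ptn, the gene of its ligand, was lower. The antisense genes Gm12970 and Gm26716 are annotated over it.

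Sdc1 encodes syndecan 1, the syndecan of epithelia and plasma cells. The gene (chromosome 12, 8771323 to 8793715, plus strand) was at 30.3, 28.7 and 30.0 RPKM in libraries labelled Vldlr- and at 52.6, 62.8 and 58.8 RPKM in those labelled Vldlr+. All libraries labelled Vldlr+ were higher, by 1.96-fold on the means (log2 fold change 0.94, SE 0.07). Sdc4 encodes syndecan 4, a part of focal adhesions that binds fibronectin and protein kinase C alpha. The gene (chromosome 2, 164424247 to 164443887, minus strand) was at 91.6, 96.6 and 99.3 RPKM in libraries labelled Vldlr- and at 158, 163 and 165 RPKM in those labelled Vldlr+. Here too the libraries labelled Vldlr+ were all higher, by 1.69-fold on the means (log2 fold change 0.75, SE 0.06).

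The summed level of the 4 syndecan genes was 469, 468 and 472 RPKM in libraries labelled Vldlr- and 575, 592 and 578 RPKM in those labelled Vldlr+, 1.24-fold higher on the means. Scaled by total reads, the sum was 1.08-fold higher and the groups still did not overlap. Sdc2 held 64.2% ± 0.938 of the sum in libraries labelled Vldlr- and 42.8% ± 1.65 in those labelled Vldlr+. Sdc3 went from 9.03% ± 0.486 to 19.4% ± 0.626, Sdc4 from 20.4% ± 0.767 to 27.8% ± 0.626 and Sdc1 from 6.32% ± 0.164 to 9.97% ± 0.749. Within a library, Sdc2 was 6.64 to 7.54 times the level of Sdc3 in libraries labelled Vldlr- and 2.10 to 2.38 times in those labelled Vldlr+.

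Ordered by level per kilobase, the 10 genes ran Ptn, Sdc2, Gpc4, Sdc4, Gpc3, Sdc3, Sdc1, Gpc1, Gpc6 and Mdk in libraries labelled Vldlr-, and no neighbours in this order overlapped. In the libraries labelled Vldlr+ the order was Sdc2, Sdc4, Sdc3, Gpc4, Sdc1, Gpc1, Mdk, Gpc6, Ptn and Gpc3. There Gpc1 and Mdk overlapped and no other neighbours did. Syndecans thus held the first 3 places in libraries labelled Vldlr+ and 1 of the first 3 in the labelled-negative ones.

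All 10 genes passed the filter of at least 1 RPKM in 3 libraries, Gpc3 through the libraries labelled Vldlr- alone. In the limma fit across all 12116 genes, 5 of the 10 were called higher and 5 lower at an adjusted p under 0.05, against 29.7% of all tested genes called higher and 26.1% called lower. The groups did not overlap for all 10, with 5 higher and 5 lower, against 33.5% and 29.5% of all tested genes. Since the set was chosen with this contrast known, nothing is read from these counts. The median log2 fold change was 0.24 over the 10 genes and 0.02 over all tested genes.

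**Figure D4:**
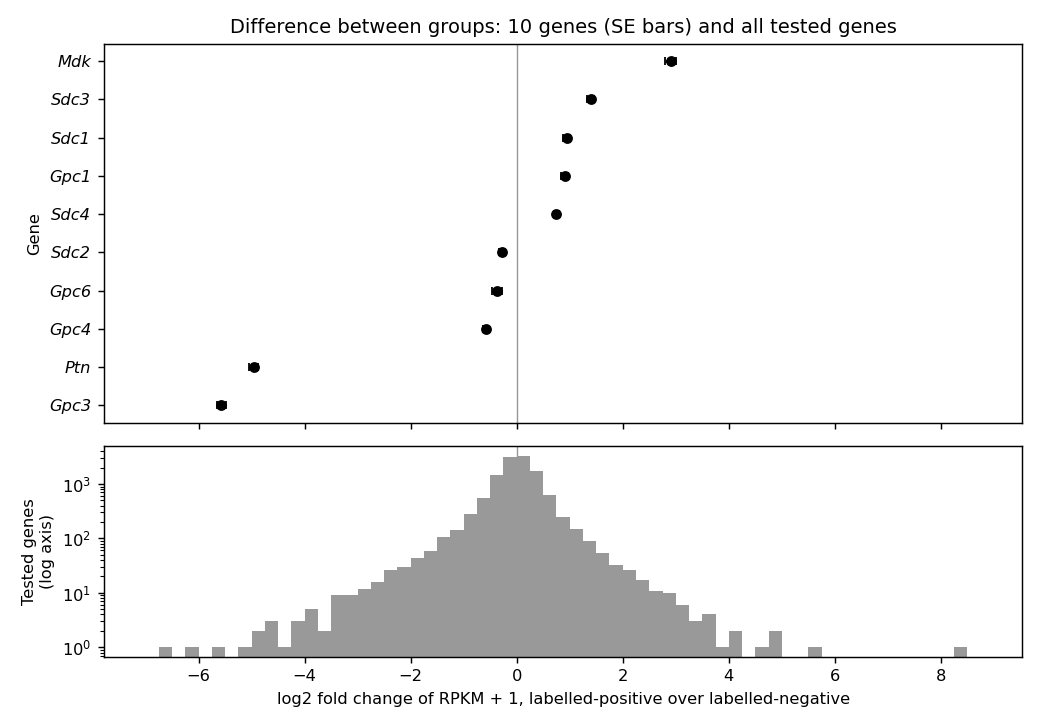
Top, log2 fold change of RPKM + 1 (labelled-positive over labelled-negative) of the 10 genes with SE bars; bottom, the number of all 12116 tested genes in bins of the same scale (log axis). Gpc3, Ptn and Mdk lie in the tails, at -5.57, -4.96 and 2.91, and the other 7 genes lie between -0.59 and 1.39.

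Labelled-positive replicate 1, the library that stood apart, was never in the middle of its group for the 10 genes. It was the lowest for 7 of them (Ptn, Mdk, Gpc1, Gpc4, Sdc1, Sdc3 and Sdc4) and the highest for the other 3 (Gpc3, Gpc6 and Sdc2). Without it, Mdk was 9.70-fold, Sdc3 2.73-fold, Sdc1 2.05-fold, Gpc1 1.99-fold and Sdc4 1.71-fold higher on the means. Ptn was then 31.8-fold, Gpc4 1.48-fold, Gpc6 1.39-fold and Sdc2 1.23-fold lower.

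The genes whose pattern over the 6 libraries was nearest were sought by the Euclidean distance between log2 values of RPKM + 1, each centred on its mean. This distance is small for any gene with a similar difference between the groups, so it mainly restates that difference. The nearest to Ptn were C1qb, Ctss, Cyp2f2, C1qa and Tyrobp, at distances from 0.32 to 0.63. All of these but Cyp2f2 are in the macrophage list. The pseudocount of 1 shrinks the difference of genes that end near 0. On the means, C1qb, Ctss and C1qa were 788-fold, 486-fold and 414-fold lower in libraries labelled Vldlr+, against 33.6-fold for Ptn. Tyrobp had no reads there, and Cyp2f2 went from 63.1 to 1.62 RPKM. Nearness on this scale is thus not a like fold. The nearest to Gpc3 were Ctss, the angiotensin receptor gene Agtr2, Ptn, C1qb and Cyp2f2, at 0.69 to 1.20. Over the whole macrophage list, means in libraries labelled Vldlr- ran from 0.557 RPKM for Ptprc to 430 RPKM for Lyz2, and Ptn was at 388 RPKM. The part of macrophage RNA in the levels of Ptn and Gpc3 was not tested. Nearest to Sdc1 were Chpf, a chondroitin polymerising factor, Oaf, Rcn3, a reticulum calcium-binding protein, Tubb2a and Rcan1, a calcineurin regulator, at 0.07 to 0.10.

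The genes around heparan sulfate were read from the same fit in 8 lists, which were also drawn up with earlier results of these data known. Of 85 tested genes, 24 (28.2%) were called higher and 31 (36.5%) lower, with 30 that did not pass, against 29.7% and 26.1% of all tested genes. The median log2 fold change was -0.06, against 0.02 over all tested genes. Scaled by total reads, which moved the log2 fold changes of all genes by a median of -0.17, 19 were higher and 46 lower, where 1871 and 5534 of all 12116 genes were. Without the filter on low values, 27 were higher and 43 lower of 103, where 4044 and 4168 genes of the table were. Each of the 8 main counts that follow is to be set beside the 29.7% and 26.1% of all tested genes. Counts with total-read scaling or without the filter go beside the counts of the whole table under that setting, given above. Of the tested genes named below, Hpse, Extl1, Hs3st3b1, Hs3st3a1 and Hhip were under 1 RPKM in all libraries labelled Vldlr+. They passed the filter through the labelled-negative libraries alone.

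Of 10 tested genes for receptors of pleiotrophin and midkine, 3 rose and 3 fell (median log2 fold change -0.17), while total-read scaling gave 1 and 7. Without the filter on low values, 3 rose and 5 fell of 12. Without labelled-positive replicate 1, 3 rose and 7 fell. Over the 85 tested genes of all lists, 26 then rose and 40 fell, against 24 and 31 with all libraries. Ptprz1, the phosphatase receptor that pleiotrophin inactivates, was at 0.560 ± 0.0273 RPKM in libraries labelled Vldlr- and 0.0510 ± 0.0156 RPKM in those labelled Vldlr+ and was too low to be tested. Itgb3, the beta 3 integrin subunit, fell 2.11-fold to 1.70 ± 0.0631 RPKM (log2 fold change -0.76, limma adjusted p = 2.2e-05), and Nrp1, a co-receptor of semaphorins and VEGF, fell 1.77-fold to 12.2 ± 1.55 RPKM (adjusted p = 1.6e-04). The laminin receptor subunit gene Itga6 rose 2.13-fold to 3.41 ± 0.422 RPKM (adjusted p = 8.6e-05). Itgb1, the beta 1 subunit, rose 1.28-fold to 361 ± 19.4 RPKM (adjusted p = 0.0013) but did not pass with total-read scaling (adjusted p = 0.051). Lrp1, a large endocytic receptor that binds midkine, was at 124 ± 11.4 and 108 ± 5.70 RPKM and did not pass (adjusted p = 0.055).

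Enzymes build the chain on a short linker of sugars and then extend it. Of 7 tested genes for the start of the chain and its linker, 3 rose and 1 fell (median log2 fold change 0.14). Pxylp1, which removes a phosphate from the linker xylose, rose 3.11-fold to 9.79 ± 0.468 RPKM (log2 fold change 1.38, adjusted p = 3.4e-07). The galactosyltransferase gene B4galt7 rose 1.36-fold (adjusted p = 7.4e-04) and the glucuronyltransferase gene B3gat3 1.32-fold (adjusted p = 0.0028, 0.056 after total-read scaling), while Xylt1, which adds the first xylose, fell 1.82-fold to 1.07 ± 0.0624 RPKM (adjusted p = 1.9e-04). Of the 5 chain polymerase genes 2 rose and 1 fell (median 0.13). Ext1 and Ext2, which together form the polymerase, rose 1.46-fold and 1.29-fold to 30.1 ± 0.911 and 23.9 ± 0.684 RPKM (adjusted p = 4.2e-05 and 4.3e-04), and Extl1 fell 1.97-fold to 0.814 ± 0.185 RPKM (adjusted p = 0.0019). Total-read scaling gave 2 higher and 2 lower in each of these lists and both medians turned negative, at -0.04 and -0.06.

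Of 12 tested sulfation and epimerisation genes 3 rose and 3 fell (median 0.003), while total-read scaling gave 3 and 6. Without the filter on low values 3 rose and 6 fell of 15, with a median of -0.11. Of the genes that supply the sulfate donor, Papss2, which makes it, rose 1.82-fold to 10.8 ± 0.911 RPKM (adjusted p = 4.2e-05). Papss1, the other gene for its synthesis and the more abundant, was at 21.7 ± 0.116 and 20.9 ± 1.44 RPKM and did not pass (adjusted p = 0.454). Slc35b2, which carries the donor into the Golgi, rose 1.42-fold to 38.4 ± 3.07 RPKM (adjusted p = 4.6e-04). The 3 genes that fell encode 3-O-sulfotransferases, among them Hs3st3b1 by 2.70-fold to 0.836 ± 0.139 RPKM (adjusted p = 9.9e-05) and Hs3st1 by 2.24-fold to 1.14 ± 0.213 RPKM (adjusted p = 2.3e-04). Both were at low levels, and Hs3st3b1 and Hs3st3a1, the other that fell, passed the filter through the labelled-negative libraries alone. With the filter at 5 RPKM, 3 rose and 0 fell of 9, where 2726 genes of the table were called higher and 1800 lower.

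Of 11 tested genes that edit, cut or release the chains or their carriers, or inhibit that, 6 fell and 2 rose (median -0.22). Total-read scaling gave the same counts, while across the table it called 5534 genes lower against 3167 in the main fit. Hpse, the heparanase that cuts heparan sulfate chains, fell 11.0-fold from 4.04 ± 0.363 to 0.367 ± 0.0540 RPKM (log2 fold change -1.88, adjusted p = 2.6e-07). Heparanase is also made by macrophages, whose markers were lower in the same libraries, and their part in this fall was not tested. The metalloprotease gene Adamts1 fell 2.24-fold to 45.7 ± 4.75 RPKM (adjusted p = 9.3e-06) and Timp3, an inhibitor of such proteases that binds to matrix, fell 2.13-fold to 72.2 ± 5.95 RPKM (adjusted p = 4.2e-06). Furin, a convertase that cuts glypican precursors, rose 1.57-fold to 18.7 ± 0.975 RPKM (adjusted p = 6.0e-05). The extracellular 6-O-sulfatase genes Sulf1 and Sulf2 were at 13.4 ± 0.524 and 62.8 ± 2.20 RPKM in libraries labelled Vldlr- and at 15.5 ± 1.97 and 66.8 ± 3.40 RPKM in those labelled Vldlr+ and did not pass (adjusted p = 0.096 and 0.24).

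Of 8 tested genes for partners of the syndecan tail 2 rose and 2 fell (median -0.004), while total-read scaling gave 1 and 4. Without the filter on low values, 3 rose and 2 fell of 9, with a median of 0.13. Without labelled-positive replicate 1, 3 rose and 4 fell, where the genes that fell over all lists went from 31 to 40. Cask, a PDZ scaffold, fell 1.60-fold to 11.1 ± 0.969 RPKM (adjusted p = 2.5e-04) and the Rac activator gene Tiam1 rose 1.62-fold to 3.66 ± 0.505 RPKM (adjusted p = 0.0017). Magi1, another scaffold, rose 1.33-fold (adjusted p = 0.022), and did not pass with total-read scaling (adjusted p = 0.165) or without labelled-negative replicate 2 or 3 or labelled-positive replicate 3 (adjusted p = 0.056, 0.073 and 0.065). Sdcbp, the gene of syntenin, which links syndecans to exosome formation, fell 1.11-fold (adjusted p = 0.040), and it did not pass under 4 of the 9 other settings (adjusted p from 0.051 to 0.108) or without any 1 library other than labelled-positive replicate 1 (adjusted p from 0.0676 to 0.149). Prkca, the kinase that syndecan 4 binds, was at 10.7 ± 0.565 and 11.8 ± 1.22 RPKM and did not pass (adjusted p = 0.19).

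Of 6 tested genes for other proteoglycans that can carry heparan sulfate 3 rose and 2 fell (median 0.22), while total-read scaling gave 2 and 2. Over the 10 genes analysed without the filter on low values, 3 rose and 5 fell and the median was -0.20. The basement membrane genes Agrn and Col18a1 rose 2.97-fold and 2.81-fold to 18.6 ± 0.586 and 60.3 ± 2.63 RPKM (adjusted p = 2.5e-07 and 4.2e-07). Endothelial and Schwann cells also make agrin and collagen XVIII. Most of their tested markers were higher in the same libraries, while Tek and S100b were lower. The part of these cells was not tested. Tgfbr3, the membrane proteoglycan betaglycan, fell 1.99-fold to 17.9 ± 1.16 RPKM (adjusted p = 6.9e-06). Srgn, the gene of serglycin, a proteoglycan of blood cell granules, fell 1.79-fold to 2.38 ± 0.0673 RPKM (adjusted p = 7.4e-05) in the libraries in which macrophage markers were lower.

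Of 26 tested genes for heparin-binding ligands, their receptors and related genes such as Cd81 and Hhip, 6 rose and 13 fell (median -0.15). Total-read scaling gave 6 and 17. The axon guidance ligand gene Slit2 fell 9.37-fold to 1.76 ± 0.343 RPKM (log2 fold change -2.67, adjusted p = 2.1e-07) and Fgf10 fell 6.14-fold to 2.50 ± 0.327 RPKM (adjusted p = 1.4e-07). The chemokine gene Cxcl12 rose 2.89-fold to 886.5 ± 24.3 RPKM (adjusted p = 1.8e-07), and Hbegf, an EGF receptor ligand that binds heparin, rose 2.55-fold to 21.7 ± 0.576 RPKM (adjusted p = 4.5e-07).

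**Figure D5:**
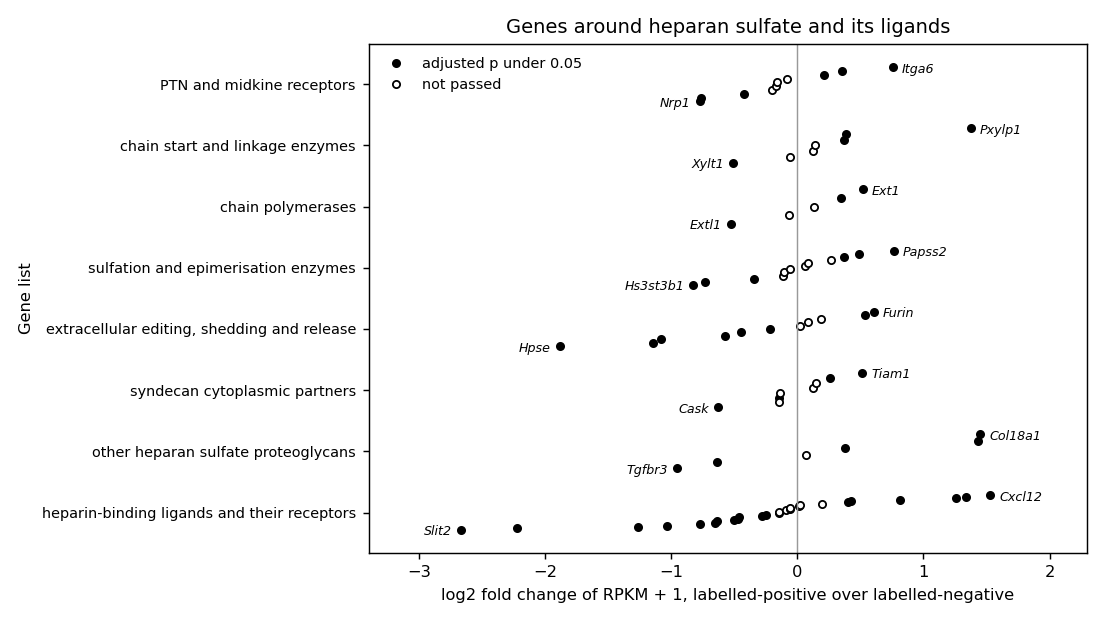
log2 fold change of RPKM + 1 (labelled-positive over labelled-negative) of the 85 tested genes around heparan sulfate, by list, with the lowest and highest gene of each list named; filled dots passed limma's test at an adjusted p under 0.05 and open dots did not. The widest spread is in the ligand list, from -2.67 for Slit2 to 1.53 for Cxcl12.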

How the data were processed

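RNA of 6 libraries was compared, 3 per sort label, with each library grouped by its title. The authors deposited 1 table with a value per gene and library; it names no unit. Multiplied by the merged exon length of each gene (GENCODE M21, GRCm38), the deposited values were whole multiples of 1 step per library for 15673 of 15674 genes with a length (tolerance 0.01 reads), so they were taken as RPKM made by the authors. Per the submitters' processing notes, the build was mm10 and the tools included Cell Ranger and bcl2fastq 1.8.4; which aligner and counter were used, and whether strand was read, is not given in the sources used here. 20 gene names had become dates. limma 3.58.1 (R 4.3.3, statmod 1.5.0, trend and robust) was run on log2(RPKM + 1) for the 12116 genes that reached 1 RPKM in 3 libraries, with group as the only term, Benjamini-Hochberg adjustment over all 12116 genes and a threshold of 0.05. Folds are ratios of mean RPKM; a fold change on the log2(RPKM + 1) scale understates the change of low genes. The procedure was tested on simulated data.

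The set of 10 genes, the lists and the rules were chosen with earlier results of these data known. Named from each list were up to 4 called genes with the lowest adjusted p; Papss1, Ptprz1, Lrp1, Sulf1, Sulf2, Prkca, Hs6st2, Hprt and C430049B03Rik were named after their values were seen. The p-values rest on the spread among these libraries alone, which may be technical. The alternatives were scaling by total reads, by median ratios or by the upper quartile, 0.1 as pseudocount, the filter dropped or set to 5 RPKM, voom on the worked-out reads, limma without trend and robust options, a replicate block, and each library left out.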

Additional observations from a re-analysis of the deposited data

How the results depend on the processing

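All 10 genes of the set kept their direction under the 9 other settings and with each of the 6 libraries left out. The size of the Gpc3 difference depended most on the setting, with a log2 fold change of -7.54 where the pseudocount was 0.1 and -8.08 by voom. The largest shifts of the other 9 genes came from total-read scaling, where Sdc2 was at -0.48, Gpc6 at -0.56 and Gpc4 at -0.79, or from voom for Mdk, at 3.15. With total-read scaling the glypican sum had a ratio of 0.562 (labelled-positive over labelled-negative) against 0.647, and the syndecan sum 1.08 against 1.24; the latter was 1.26 with upper-quartile scaling. Leaving out 1 library gave ratios of 0.637 to 0.658 and 1.23 to 1.25. Settings of the test do not alter these sums.

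Across the table, 3602 genes were called higher and 3167 lower. Without the filter on low values, 4044 were higher and 4168 lower, so that lower calls were then the more frequent. Total-read scaling gave 1871 and 5534. The filter at 5 RPKM, which tests fewer genes, gave 2726 higher and 1800 lower. On the heparan sulfate lists 18 were then higher and 20 lower of 66, against 24 and 31 of 85. Leaving out 1 library gave 2830 to 4103 higher and 2415 to 3754 lower, with 23 to 26 and 28 to 40 on the lists. Of the named list genes, B3gat3, Itgb1, Magi1 and Sdcbp lost their call under some setting in which they were tested. The cause was not tested. Itga6, Itgb3, Xylt1, Extl1, Hs3st1, Hs3st3b1, Hpse, Tiam1, Magi1 and Srgn did not pass the filter at 5 RPKM and have no call there. With that filter, 0 genes fell in the lists for chain start and linker (5 tested), polymerases (4 tested) and sulfation (9 tested). Among 6 tested partners of the syndecan tail 0 rose and 2 fell. Nothing is read from lists this short.

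Libraries with the same replicate number were not shown to be pairs. The deviations from the group means correlated at 0.303, -0.0611 and 0.307 for numbers 1, 2 and 3. With the replicate block, 3738 genes were called higher and 3315 lower, and 25 and 30 on the lists. Depth limits the labelled-positive level of Gpc3, with 29 reads in all.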
